A study of Mus musculus with 8 samples.

Results

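The subunits of respiratory complexes II to V and cytochrome c were followed by RNA sequencing in mouse mammary basal cells, the outer epithelial layer of the ducts, sorted into G1 and G0. The set was a list of 44 genes chosen by function, 38 encoded in the nucleus and 6 on the mitochondrial chromosome, among the 54837 gene identifiers counted. All 44 were found by their GENCODE symbols, and 43 had enough reads to be tested. The remaining gene, mt-Atp8, had 15 reads over all libraries together.

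The libraries came from G1 cells, in the growth phase before DNA synthesis, and from G0 cells, in the resting state outside the division cycle. Each of 4 runs gave 1 library of each phase. All 8 libraries were from untreated mice labelled as strain C57BL/B6, and no genetic change is named for either group. Which markers sorted the cells, how old the mice were and how many mice stand behind a library is not given in these sources. The p-values therefore rest on the spread between libraries, part of which may be technical.

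The respiratory chain passes electrons from NADH and succinate to oxygen and pumps protons across the inner mitochondrial membrane, and ATP synthase, complex V, uses the returning protons to make ATP. Complex II feeds in electrons from succinate, complex III hands them to cytochrome c, and complex IV hands them to oxygen. Complex II is encoded entirely in the nucleus, whereas complexes III, IV and V each combine nuclear subunits with subunits made inside the mitochondrion. NRF1, a DNA-binding factor whose sites are found near many genes of respiratory subunits, is one of the known regulators of the nuclear part.

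Total counts were 6807090 to 13711195 in the G1 libraries and 5868728 to 15014104 in the G0 libraries. In the G0 library of run 4, 39094 genes had at least 1 read, while the others had 20836 to 26614 such genes. The predicted gene Gm10800 took 1.71% of the counts in the G1 library of run 4 and 8.13% in the G0 library. In run 3 it took 0.0129% in the G1 library and 1.19% in the G0 library. The basal keratin Krt14 averaged 8228 CPM (counts scaled to library size by TMM factors) in G1 and 7959 CPM in G0. Acta2, the most abundant of the 7 basal markers, averaged 12151 CPM in G1 and 7886 CPM in G0. All 7 passed the low-count filter, as did all 10 endothelial and 9 of 10 luminal markers. Libraries of the same run shared their deviations from the group mean, with correlations of 0.44 to 0.67, so a fit that holds the run as a block is given next to the fit with the phase alone wherever a call differs. The biological coefficient of variation was 34.9% in the fit with the phase alone and 16.9% in the fit with the block.

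Sequence around the starts of nuclear genes is shown first, for the called genes that have an entry in the RefSeq promoter table and for 1 gene of each complex with a match to the NRF1 consensus. Each line reads 5′ to 3′ on the strand of the gene on GRCm38, from RefSeq's table of GRCm38.p6. Atp5e, the epsilon subunit of ATP synthase, is shown over chr2:174464102-174464351 (minus strand), up to the base before its RefSeq start, and Atp5k, subunit e of the membrane part of ATP synthase, over chr5:108434419-108434649 (minus strand), from 250 to 20 bases before its RefSeq start. GENCODE starts Atp5k further upstream, at 108434448. The last 30 bases shown thus lie inside the GENCODE gene, with nearly all of the NRF1 match among them. Capitals mark GC boxes (GGGCGG) and CCAAT boxes (CCAAT) in Atp5e and the NRF1 consensus (GCGC, then A, then any base, then GCGC) in Atp5k, on either strand.
Atp5e: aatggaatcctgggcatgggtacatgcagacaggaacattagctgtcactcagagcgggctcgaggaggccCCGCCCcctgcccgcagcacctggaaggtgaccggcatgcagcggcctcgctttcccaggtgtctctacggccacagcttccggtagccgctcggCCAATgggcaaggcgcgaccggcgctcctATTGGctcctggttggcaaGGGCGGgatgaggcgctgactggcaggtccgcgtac
Atp5k: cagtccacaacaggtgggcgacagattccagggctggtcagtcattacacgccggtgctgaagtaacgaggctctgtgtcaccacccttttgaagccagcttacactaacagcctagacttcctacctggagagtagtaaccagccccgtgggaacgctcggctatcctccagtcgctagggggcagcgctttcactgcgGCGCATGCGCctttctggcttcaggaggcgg

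Further windows of 30 bases, 1 gene per complex, show the NRF1 consensus in capitals with its flanks. They lie at chr9:50603909-50603938 (minus strand) for Sdhd, chr9:108936668-108936697 (plus) for Uqcrc1, chr5:115349101-115349130 (minus) for Cox6a1 and chr15:102671070-102671099 (minus) for Atp5g2. The match begins at base 31 after the RefSeq start in Uqcrc1, inside the gene, and before that start in the others. The Atp5g2 window also lies inside the GENCODE gene, which starts further upstream, at 102672352.
Sdhd: tcgctggggtGCGCACGCGCggtggcagcg
Uqcrc1: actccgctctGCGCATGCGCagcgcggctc
Cox6a1: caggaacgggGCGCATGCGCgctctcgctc
Atp5g2: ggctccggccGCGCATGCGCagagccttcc

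Of the 38 nuclear genes, 30 had a promoter entry of 300 bases, 250 before the start and 50 after it. The entries were searched for 6 motifs on both strands, and a gene with more than 1 entry was counted if any held the motif. The NRF1 consensus was found for 10 of the 30 genes, 33.3%, against 4.6% of the 32851 promoters in the table. CCGGAAGT, an ETS motif of the kind GABPA binds, was found for 4 (13.3% against 3.89%), and AAGATGGC, the YY1 motif, for 2 (6.67% against 2.75%). At least 1 of these 3 was present for 15 of the 30 genes, against 10.4% of all promoters. GGGCGG was found for 10 genes (33.3% against 35.7%), CCAAT for 17 (56.7% against 37.4%) and CACGTG, the E-box, for 3 of the 30 genes (against 7.15%). The 10 genes with the NRF1 consensus had a median log2 fold change of 0.34 (G1 over G0, fit with the run block), and the 20 without it had one of 0.34 as well. Of the called genes, Cox6c is among those with no entry.

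With the phase alone in the model, no gene of complexes II to V passed the test, while with the run as a block Cox6c, Atp5e and Atp5k were higher in G1. All 38 nuclear genes had a log2 fold change above 0 in both fits. The median over the nuclear genes was 0.29 with the phase alone and 0.33 with the block, against medians over all 15192 tested genes of -0.0007 and 0.007. In the blocked fit the nuclear genes ran from 0.15 for Atp5d to 0.55 for Atp5e.

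In the fit with the phase alone, edgeR's quasi-likelihood test at an adjusted p of 0.05 called 0 of 43 tested members in either direction, where it called 0% of all tested genes. At an unadjusted p under 0.05 it also had 0 members in either direction, against 1.03% of all genes higher and 1.77% lower. DESeq2 called 0 members, where it called 0.0658% of all genes higher, and limma-voom called 0 genes of any kind. With no low-count filter edgeR called 0 members, where it called 0.0329% of all genes higher. In the fit with the run block, 3 of 43 members were called higher, where 0.481% of all tested genes were, and 0 were called lower, where 0.764% of all tested genes were. At an unadjusted p under 0.05 the blocked fit had 36 of 43 members higher, 33 of them nuclear, against 6.58% of all genes, and 0 lower, against 5.69%. A log2 fold change above 0 was found for 42 of 43 members in the blocked fit, against 51.1% of all genes, and for 43 of 43 with the phase alone, against 49.9%. With the block, RLE size factors called the same 3 members (0.487% of all genes higher), as did library totals (0.507%). Limma-voom with the block called Atp5e and Cox6c (0.415% of all genes), and DESeq2 with the block called Cox7b and Uqcr10 besides the 3 (0.638% of all genes).

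Within runs, 31 of the 38 nuclear genes were higher in G1 than in G0 in all 4 runs, against 11.3% of all tested genes. The exceptions were Sdha, Uqcrc1 and Cyc1 in run 2, Sdhd and Uqcrc2 in run 1, and Cycs and Cox5a in run 3. In every one of the 43 tested members the ranges of the G1 and G0 values overlapped, as they did in nearly all tested genes. Of all 15192, 126 (0.829%) had each G1 value above each G0 value, and 178 had each G1 value below. The summed level of the 38 nuclear genes was 7733, 6610, 10550.0 and 8682 CPM in the G1 libraries of runs 1 to 4, against 7161, 5491, 9099 and 5726 CPM in the G0 libraries. The sums averaged 8394 ± 1669 CPM in G1 and 6869 ± 1660 CPM in G0 (SD, n = 4), a difference smaller than the SD within a phase. The ratio of the sums, G1 over G0, was 1.08, 1.20, 1.16 and 1.52 in runs 1 to 4. The sum in G1 was thus above that in G0 in each run, while the G0 library of run 3 lay above the G1 libraries of the other runs. In bulk samples, fewer cells of a type and less RNA per cell cannot be told apart.

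**Figure D1:**
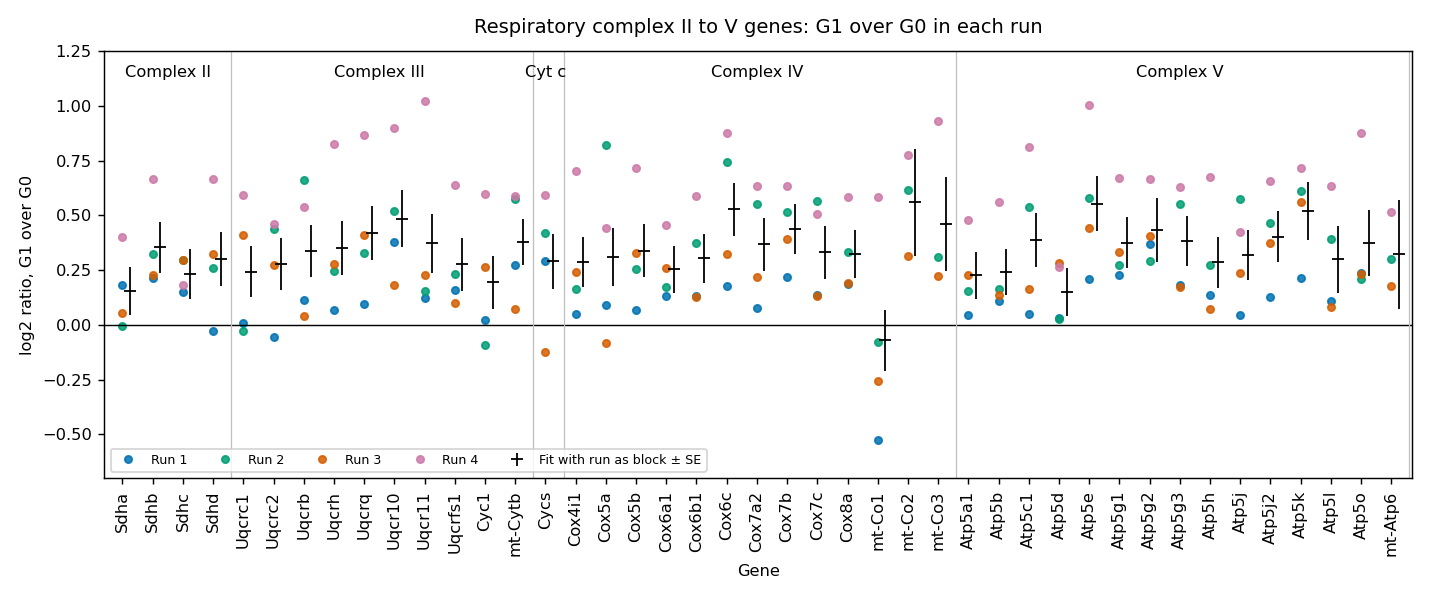
Log2 ratio of G1 over G0 in each of 4 runs (coloured points) for each tested gene, ordered by complex, with the log2 fold change of the fit with the run as a block (tick) and its standard error (line). The fitted values lie above 0 for all genes except mt-Co1 at -0.07, and the points of run 4 are the highest for 32 of the 38 nuclear genes. mt-Co2, mt-Co3 and mt-Atp6 have no ratio in run 1, where both libraries had 0 counts.

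The runs differed in the size of the ratio. The median log2 ratio over the nuclear genes was 0.13 in run 1, 0.33 in run 2, 0.23 in run 3 and 0.64 in run 4. Run 4 gave the largest of the 4 ratios for 32 of 38 nuclear genes, 84.2%, against 27.2% of all tested genes, and run 1 gave the smallest for 22. The G0 library of run 4 is the one with reads on 39094 genes. Without run 4, 38 of 38 nuclear genes still had a blocked log2 fold change above 0, with a range of 0.06 to 0.45, and 0 members were called, where 0.144% of all genes were called higher. The level itself was highest in run 3, for 30 of 38 nuclear genes among the G1 libraries and 29 of 38 among the G0 libraries.

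Cox6c, Atp5e and Atp5k encode small nuclear subunits, one of cytochrome c oxidase and the others of ATP synthase. Cox6c (ENSMUSG00000014313) lies on chromosome 15 from 35925886 to 35938246, Atp5e (ENSMUSG00000016252) on chromosome 2 from 174461072 to 174464105, and Atp5k (ENSMUSG00000050856) on chromosome 5 from 108433244 to 108434448, all on the minus strand of GRCm38. They were picked out here because they passed the test in the blocked fit.

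Cox6c had 248, 171, 366 and 293 CPM in the G1 libraries of runs 1 to 4, against 219, 102, 292 and 160 CPM in the G0 libraries. G1 was higher in each run, yet the G1 library of run 2 lay below the G0 libraries of runs 1 and 3. The log2 fold change was 0.53 ± 0.12 (SE) with the run block, with an adjusted p of 0.0242, and 0.48 ± 0.32 with the phase alone, with an adjusted p of 0.9999.

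Atp5e had 142, 88.9, 205 and 152 CPM in the G1 libraries of runs 1 to 4, against 123, 59.4, 151 and 75.7 CPM in the G0 libraries. Its run 4 ratio was the largest of its 4, at a log2 value of 1.01, and its run 1 ratio the smallest, at 0.21. The log2 fold change was 0.55 ± 0.13 with the run block (adjusted p = 0.023) and 0.52 ± 0.32 with the phase alone (adjusted p = 0.9999).

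Atp5k had 66.4, 36.9, 88.8 and 56.5 CPM in the G1 libraries of runs 1 to 4, against 57.1, 24.1, 60.1 and 34.3 CPM in the G0 libraries. Its ratios in runs 2, 3 and 4 lay close together, at log2 values of 0.61, 0.56 and 0.72, above the 0.22 of run 1. The log2 fold change was 0.52 ± 0.13 with the run block (adjusted p = 0.0475) and 0.50 ± 0.33 with the phase alone (adjusted p = 0.9999).

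The calls were lost when either run 2 or run 4 was left out. Without run 2, where 0.409% of all genes were called higher, Cox6c, Atp5e and Atp5k had adjusted p of 0.114, 0.0587 and 0.124, and without run 4 of 0.245, 0.245 and 0.264. Without run 1 (0.638% of all genes called higher) all 3 passed, at 0.00388, 0.00432 and 0.0316. Without run 3 (0.477%) Cox6c and Atp5e passed, at 0.00604 and 0.013, while Atp5k had 0.115 and Uqcr10 and mt-Cytb passed beside them. Cox6c shares 250 exon bases with Vps13b on the opposite strand, and whether reads were counted by strand is not given. Vps13b had 2396 counts over all libraries against 19966 for Cox6c.

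**Figure D2:**
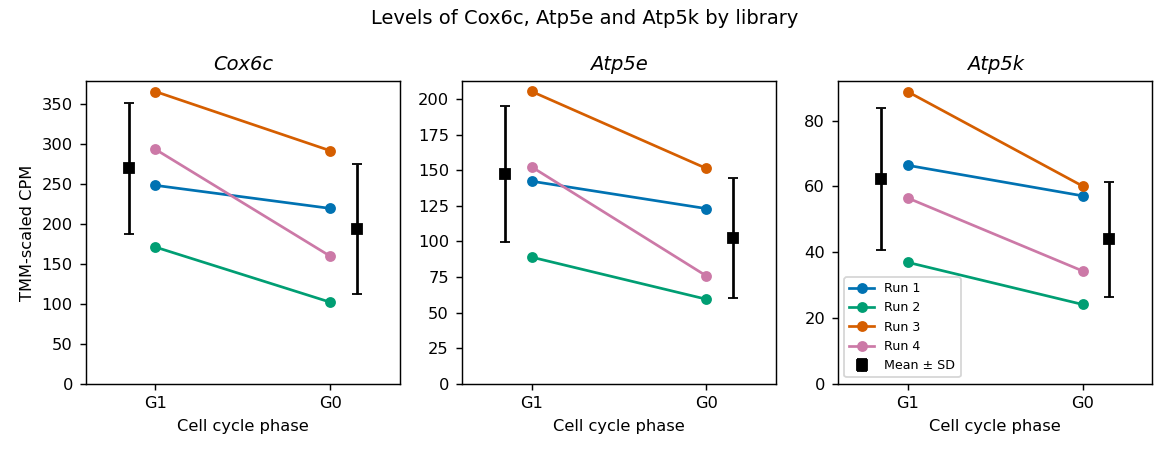
TMM-scaled CPM of Cox6c, Atp5e and Atp5k in the G1 and G0 library of each run (coloured points joined within a run), with the mean ± SD of each phase (black squares, n = 4). Each line falls from left to right, with G1 above G0 in all 4 runs, and the ranges of the 2 phases overlap.

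Complex II, succinate dehydrogenase, has 4 subunits, all nuclear, and doubles as an enzyme of the citric acid cycle. No subunit passed the test in either fit, and the median log2 fold change was 0.25 with the phase alone and 0.27 with the block. Sdha, the flavoprotein that oxidises succinate, had 216, 216, 145 and 187 CPM in the G1 libraries of runs 1 to 4, against 190.4, 217, 139.7 and 142 CPM in the G0 libraries. Its blocked log2 fold change of 0.15 ± 0.11 was the smallest of the complex (adjusted p = 0.624), and G1 and G0 were level in run 2.

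Sdhb, the iron-sulfur subunit, had 170.3, 135, 126 and 147 CPM in G1 and 147, 108, 108 and 92.4 CPM in G0. Its log2 fold change of 0.35 ± 0.12 with the block was the largest of the complex (adjusted p = 0.163), and G1 was the higher in each run. The membrane anchor Sdhc had 146, 110.1, 88.2 and 106 CPM in G1 and 131, 89.7, 71.8 and 93.0 CPM in G0, with 0.23 ± 0.11. The other anchor, Sdhd, had 111, 95.1, 123 and 109.7 CPM in G1 and 113, 79.3, 98.2 and 68.98 CPM in G0, with 0.30 ± 0.12. Sdhc kept nearly the same ratio in every run, while the Sdhd ratio ran from a log2 value of -0.03 in run 1 to 0.67 in run 4.

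Complex III, the cytochrome bc1 complex, was represented by 9 nuclear subunits and mt-Cytb. None of the nuclear subunits passed in either fit, and their median log2 fold change was 0.27 with the phase alone and 0.34 with the block. Uqcr10, a small subunit, had 83.0, 60.6, 138 and 97.9 CPM in G1, against 63.8, 42.2, 122 and 52.4 CPM in G0. Its blocked log2 fold change of 0.49 ± 0.13 was the largest of the complex, and its adjusted p was 0.0622. DESeq2 with the block called it (adjusted p = 0.0462), as did edgeR without run 3 (adjusted p = 0.0194).

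At the low end stood Cyc1, cytochrome c1, which passes electrons to cytochrome c. It had 178, 156, 202 and 197 CPM in G1, against 175, 167, 168 and 129.9 CPM in G0, and a blocked log2 fold change of 0.19 ± 0.12 (adjusted p = 0.551). The core subunits Uqcrc1 and Uqcrc2 and the Rieske iron-sulfur protein Uqcrfs1 lay between, at 0.24 ± 0.12, 0.28 ± 0.12 and 0.28 ± 0.12. Uqcrc2 shares 504 exon bases with Pdzd9 on the opposite strand, which had 1737 counts against 10190 for Uqcrc2. Uqcrb, which helps bind ubiquinone, had 0.34 ± 0.12, and the hinge protein Uqcrh had 0.35 ± 0.12. The small subunits Uqcrq and Uqcr11 had 0.42 ± 0.12 and 0.37 ± 0.13. The 3 largest values of the nuclear part of the complex thus belonged to its short subunits Uqcr10, Uqcrq and Uqcr11.

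Cycs, cytochrome c, carries electrons from complex III to complex IV and also takes part in apoptosis. It had 70.6, 94.3, 166 and 110.4 CPM in the G1 libraries of runs 1 to 4, against 57.7, 70.4, 181 and 73.1 CPM in the G0 libraries. G1 was higher in runs 1, 2 and 4 and lower in run 3, and the blocked log2 fold change was 0.29 ± 0.13 (adjusted p = 0.327). Near-identical copies of Cycs at 4 loci took counts equal to 3.08% of its own, most of them at Gm10053, which is annotated as protein-coding.

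Complex IV, cytochrome c oxidase, was represented by 10 nuclear subunits, which surround a catalytic core made of mt-Co1, mt-Co2 and mt-Co3. Of the nuclear subunits, 1 was called higher with the block, Cox6c, where 0.481% of all tested genes were, and 0 with the phase alone. Their median log2 fold change was 0.30 with the phase alone and 0.33 with the block, and 9 of the 10 were higher in G1 in all 4 runs. The smallest blocked value was that of Cox6a1, at 0.25 ± 0.11 (adjusted p = 0.313). It had 290.2, 233, 487 and 279 CPM in G1, against 265, 207, 407 and 203 CPM in G0, and G1 was higher in each run.

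Cox5a had the smallest value of the nuclear subunits with the phase alone, at 0.22 ± 0.31. It had 127, 99.2, 156 and 100.2 CPM in G1, against 119, 56.1, 165 and 73.8 CPM in G0, so that G1 was lower in run 3, and its blocked value was 0.31 ± 0.13 (adjusted p = 0.323). Apart from the called Cox6c, at 0.53 ± 0.12, the blocked values of the others ran from 0.29 ± 0.12 for Cox4i1 to 0.44 ± 0.11 for Cox7b. Cox7b had an adjusted p of 0.0593 in edgeR and of 0.0249 in DESeq2 with the block. Cox5b, Cox6b1, Cox7a2, Cox7c and Cox8a had adjusted p of 0.159 to 0.237. Cox5a shares 269 exon bases with Gm26631 on the opposite strand, which had 7331 counts against 10025 for Cox5a. Cox4i1 shares 154 with Emc8 on the opposite strand, which had 8965 counts against 31217 for Cox4i1.

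Complex V, ATP synthase, was represented by 14 nuclear subunits, which build the catalytic F1 head, the stalks, the ring of the membrane rotor and small membrane subunits. Of these, 2 were called higher with the block, Atp5e and Atp5k, where 0.481% of all tested genes were, and 0 with the phase alone. The median log2 fold change of the nuclear subunits was 0.35 with the phase alone and 0.37 with the block, and all 14 were higher in G1 in all 4 runs. In the F1 head, the alpha subunit Atp5a1 had a blocked value of 0.23 ± 0.11 and the beta subunit Atp5b, which holds the catalytic sites, one of 0.24 ± 0.10. The gamma subunit Atp5c1, the rotating shaft, had 0.39 ± 0.12 (adjusted p = 0.146).

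Atp5d, the delta subunit at the foot of the shaft, had the smallest value of the complex, 0.15 ± 0.11 (adjusted p = 0.624). It had 224, 203, 397 and 233 CPM in G1, against 219.6, 199, 327 and 194 CPM in G0, and the phases were nearly level in runs 1 and 2. Atp5e, whose product binds beside it, had the largest. The peripheral stalk genes Atp5h, Atp5j and Atp5o had 0.29 ± 0.12, 0.32 ± 0.11 and 0.37 ± 0.15, and the membrane subunits Atp5j2 and Atp5l 0.40 ± 0.12 and 0.30 ± 0.15. The adjusted p of these 5 genes was 0.105 to 0.433. Atp5l is uncertain, because 9 near-identical copies took counts equal to 23.1% of its own. It also shares 133 exon bases with Gm30934 on the opposite strand, which had 3238 counts against 2610 for Atp5l. Atp5j shares 397 exon bases with Gabpa on the opposite strand, which had 6200 counts against 20216 for Atp5j. Atp5o shares 346 with D430001F17Rik and 356 with Gm15976, both on the opposite strand. These had 1271 and 21 counts against 3049 for Atp5o. The values for Atp5o are those of ENSMUSG00000022956, and a second identifier of that symbol had 0 counts.

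Subunit c, which forms the rotating ring in the membrane, is made from the 3 paralogs Atp5g1, Atp5g2 and Atp5g3, which encode the same mature protein. Atp5g1 had 96.9, 105, 236 and 146 CPM in G1, against 82.7, 87.2, 187 and 91.6 CPM in G0. Atp5g2 had 16.4, 29.6, 45.7 and 44.1 CPM in G1, against 12.6, 24.1, 34.5 and 27.7 CPM in G0. Atp5g3 had 377, 292, 482 and 373 CPM in G1, against 332, 199.7, 427 and 241 CPM in G0. All 3 were higher in G1 in each run, and none passed.

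The blocked log2 fold changes of the paralogs were 0.37 ± 0.12 for Atp5g1 (adjusted p = 0.133), 0.43 ± 0.15 for Atp5g2 (adjusted p = 0.183) and 0.38 ± 0.11 for Atp5g3 (adjusted p = 0.106). Per transcript length, Atp5g3 gave 63.2% ± 6.58 of subunit c transcripts in G1 and 63.3% ± 6.96 in G0 (SD, n = 4). Atp5g1 gave 27.8% ± 4.69 in G1 and 28.0% ± 4.34 in G0, and Atp5g2 gave 8.93% ± 2.79 in G1 and 8.79% ± 3.28 in G0. The mean shares of the 3 genes were within the spread between libraries. A copy of Atp5g1, Gm10039, took counts equal to 8.13% of its own, and Atp5g2 has 2 copies of 100.0% identity, which took 15 counts in all.

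The 6 mitochondrially encoded genes fell into 2 sets by their counts. mt-Cytb, the cytochrome b of complex III, had 27161, 17380, 23416 and 13222 counts in the G1 libraries of runs 1 to 4, against 17530, 10004, 32143 and 7345 in the G0 libraries. mt-Co1, the catalytic subunit of complex IV, had 7590, 8874, 16185 and 13053 counts in G1, against 8534, 8014, 27952 and 7275 in G0. The other genes, mt-Co2, mt-Co3, mt-Atp6 and mt-Atp8, were far lower and stood at 0 in both libraries of run 1. These counts are not scaled to depth, and in run 3 the library totals were 10594434 in G1 and 15014104 in G0. Once scaled, mt-Cytb was higher in G1 in that run, at 2379 against 2260 CPM, as were mt-Co2, mt-Co3 and mt-Atp6. mt-Co1 stayed lower in G1 there, at 1644 against 1965 CPM.

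mt-Co2, which takes up electrons from cytochrome c, had 0, 141, 195 and 93 counts in G1, against 0, 78, 226 and 45 in G0. mt-Co3, the third core subunit of complex IV, had 0, 219, 307 and 131 counts in G1, against 0, 151, 379 and 57 in G0. mt-Atp6, the proton channel of complex V, had 0, 120, 196 and 74 counts in G1, against 0, 83, 250 and 43 in G0. mt-Atp8 had 0, 1, 10 and 1 counts in G1, against 0, 2, 0 and 1 in G0. These 4 genes lie next to each other on the mitochondrial chromosome, from position 7013 to 9390.

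The nuclear genome holds copies of that stretch on chromosome 1 that are listed as separate genes. Gm28661 matched mt-Co2 over 681 bases, Gm28437 matched mt-Co3 over 783 and Gm10925 matched mt-Atp6 over 678, each at 100.0% identity. Over all libraries the copies of mt-Co3 and mt-Atp6 had counts equal to 76.5% and 91.6% of those of the genes. For mt-Co2, Gm28661 had 424 counts against 778 for the gene. A further copy of mt-Co2 on chromosome 2, Gm13341 at 95.9% identity, had 310 counts, and both copies together came to 94.3% of the gene. The 3 named chromosome 1 copies had 0 to 3 counts in each run 1 library, while Gm13341 had 46 in G1 and 10 in G0. How reads with several equal matches were counted is not given, and its part in these counts was not tested. The levels of mt-Co2, mt-Co3 and mt-Atp6 are therefore uncertain. That of mt-Atp8 is uncertain because it had 15 counts over all libraries. Whether it has copies is not settled, since the search kept matches of at least 200 bases and mt-Atp8 has 204. No copy of mt-Cytb was found, and the 2 copies of mt-Co1 took counts equal to 0.626% of its own. That share cannot show reads that were counted for neither gene nor copy.

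**Figure D3:**
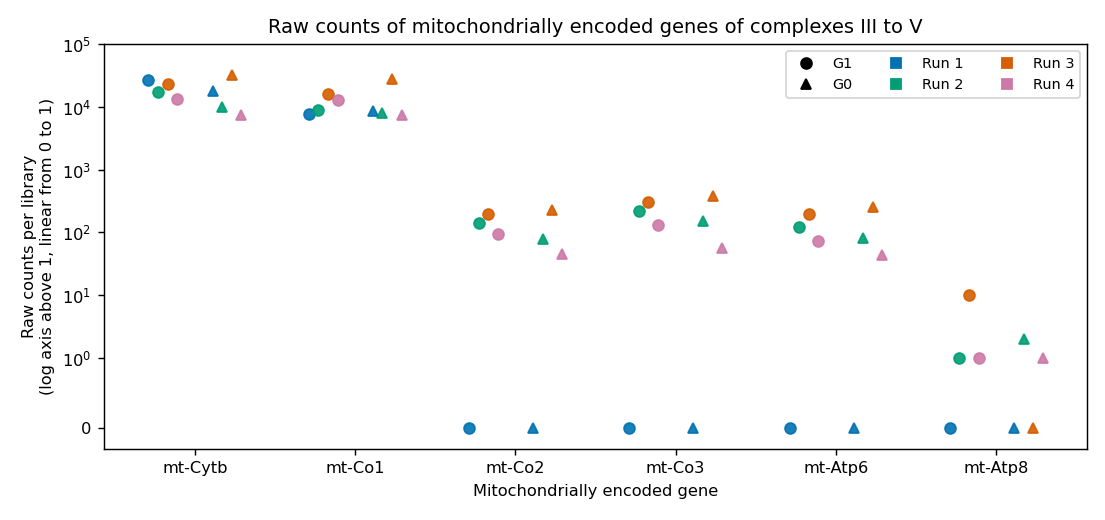
Raw counts per library of the 6 mitochondrially encoded genes (log axis above 1, linear from 0 to 1), with circles for G1, triangles for G0 and a colour for each run. mt-Cytb and mt-Co1 lie between 7275 and 32143 in every library, while mt-Co2, mt-Co3, mt-Atp6 and mt-Atp8 lie at 0 in both libraries of run 1 and at no more than 379 in the others.

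No mitochondrially encoded gene passed in either fit. mt-Cytb averaged 1896 ± 433 CPM in G1 and 1510 ± 575 CPM in G0 (SD, n = 4), and was higher in G1 in all 4 runs. Its log2 fold change was 0.38 ± 0.11 with the block (adjusted p = 0.0845) and 0.33 ± 0.28 with the phase alone, and without run 3 the blocked adjusted p was 0.011. mt-Co1 averaged 1199 ± 698 CPM in G1 and 1186 ± 582 CPM in G0, and was higher in G1 in run 4 and lower in runs 1, 2 and 3. Its log2 fold change was -0.07 ± 0.14 with the block (adjusted p = 0.895) and 0.02 ± 0.46 with the phase alone. mt-Co1 was the only tested member whose sign differed between these 2 fits.

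mt-Co2, mt-Co3 and mt-Atp6 had blocked values of 0.56 ± 0.25, 0.46 ± 0.22 and 0.32 ± 0.25 (adjusted p = 0.342, 0.386 and 0.661). Those values rest on runs 2 to 4, since both run 1 libraries had no counts. As a share of mt-Cytb counts, mt-Co1 had 27.9%, 51.1%, 69.1% and 98.7% in the G1 libraries of runs 1 to 4, against 48.7%, 80.1%, 87.0% and 99.1% in the G0 libraries. The share was lower in G1 than in G0 in each run, by the least in run 4, and it varied more between runs than between phases. The mRNAs of the mitochondrion come from long shared precursors, and the libraries were made from polyadenylated RNA.

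By encoding, the median blocked log2 fold change was 0.38 over the 5 tested mitochondrial genes and 0.33 over the 38 nuclear genes. No copy of mt-Cytb was found, while mt-Co1 had 2. They are Gm29216 (483 bases at 99.8% identity) and Gm13340 (1545 bases at 97.6%), and their part in its counts was not tested. For mt-Co1 and mt-Cytb alone the median was 0.15. Their summed level was 2449.8, 2002.5, 4023 and 3905 CPM in the G1 libraries of runs 1 to 4, against 2352, 1604, 4225 and 2599 CPM in the G0 libraries. The ratio of G1 over G0 was thus 1.04, 1.25, 0.952 and 1.50 in runs 1 to 4, next to 1.08, 1.20, 1.16 and 1.52 for the nuclear sum. The difference between the encodings was not tested.

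Per kilobase of transcript, the highest levels were those of mt-Cytb, at 1657 ± 379 CPM per kilobase in G1 and 1320 ± 503 in G0 (SD, n = 4), and mt-Co1, at 776 ± 452 in G1 and 767 ± 376 in G0. Atp5b led the nuclear genes, at 769 ± 100.2 CPM per kilobase in G1 and 651 ± 102 in G0. By the mean of the 2 phases it was followed by Cox6a1 (565 ± 198 in G1, 474 ± 167 in G0), Cox8a (562 ± 229 in G1, 453 ± 210 in G0) and Cox4i1 (531 ± 159 in G1, 436 ± 139 in G0), which did not differ from each other beyond their spread. Among the nuclear genes the lowest were Sdhc, at 35.5 ± 7.62 CPM per kilobase in G1 and 30.4 ± 7.88 in G0, and Cycs, at 35.3 ± 13.0 in G1 and 30.6 ± 18.3 in G0. The highest of the 4 subunits of complex II was Sdhb, at 127 ± 16.8 CPM per kilobase in G1 and 99.6 ± 20.4 in G0. Levels per length depend on the transcript chosen for each gene, here 3171 bases for Sdhc and 3123 for Cycs against 371 for Atp5k.

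**Figure D4:**
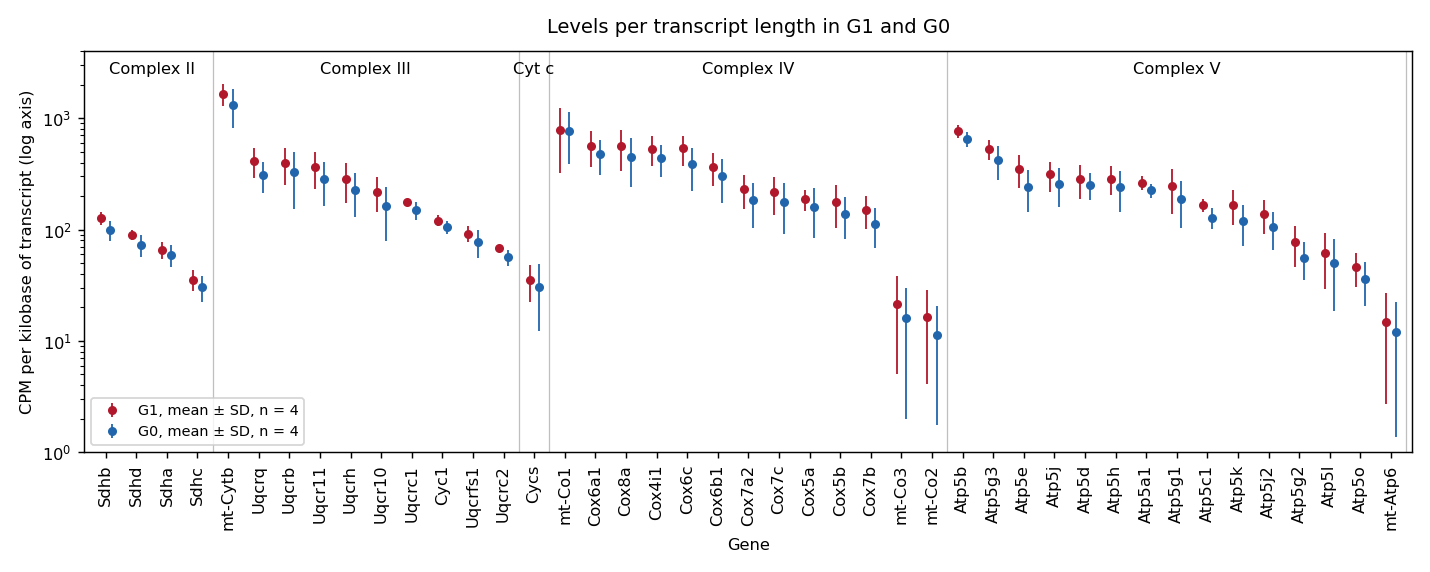
CPM per kilobase of reference transcript (log axis) for each tested gene, as mean ± SD of 4 G1 libraries (red, left) and 4 G0 libraries (blue, right), ordered within each complex by level. The G1 mean lies above the G0 mean for every gene, and the subunits of complex II lie at or below the 127 CPM per kilobase of Sdhb. The large SD of mt-Co2, mt-Co3 and mt-Atp6 includes the 0 counts of run 1.

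Forms of the subunits that are known from heart, muscle, lung or testis were low. Of a list of 10 such forms and related genes, which also holds Ndufa4l2 and the processed pseudogene Atp5l2-ps, 2 passed the low-count filter, Cox4i2 and Cox6b2, and neither passed the test. Cox6b2, known from testis, averaged 6.98 ± 1.61 CPM in G1 and 8.02 ± 2.71 CPM in G0 (SD, n = 4), with a blocked log2 fold change of -0.19 ± 0.24 (adjusted p = 0.809). Cox4i2, known from lung, reached 0.41 to 1.53 CPM in G1 and 0.89 to 2.18 CPM in G0, with -0.64 ± 0.55 (adjusted p = 0.707). Cox6a2, Cox7a1, Cox8b and the testis cytochrome c Cyct stayed at or under 1.32 CPM in all libraries, and Cox8c had 0 counts.

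Fold change and transcript length were related among these genes. Across the 38 nuclear genes Spearman's rho between the blocked log2 fold change and the length of the reference transcript was -0.66, and across all 15188 tested genes with a length it was -0.29. These are correlations across genes within the same libraries, and genes are not independent replicates. The 6 nuclear genes with transcripts of up to 500 bases had a median of 0.46, against 0.12 for all 513 tested genes in that range. The 19 genes of 501 to 1000 bases had 0.33 against 0.16, the 9 of 1001 to 2000 bases had 0.28 against 0.08, and the 4 of 2001 to 4000 bases had 0.23 against 0.006. The median of the nuclear genes thus lay above that of all genes in each range, while single genes such as Atp5d, at 0.15, did not all do so.

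With offsets for length and GC content in the blocked fit, rho was -0.29 across the nuclear genes and -0.009 across all genes. The median of the nuclear genes was then 0.22, with all 38 above 0, against 0.01 for all tested genes. Cox6c and Atp5e were called, at 0.36 ± 0.08 and 0.41 ± 0.09 (adjusted p = 0.0255 and 0.0266), where 0.797% of all genes were called higher. Atp5k had 0.37 ± 0.10 (adjusted p = 0.0808). mt-Cytb had 0.21 ± 0.07 and mt-Co1 -0.21 ± 0.13, and the median of the 2 was -0.004. The part of length in the ratios beyond these offsets was not tested.

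**Figure D5:**
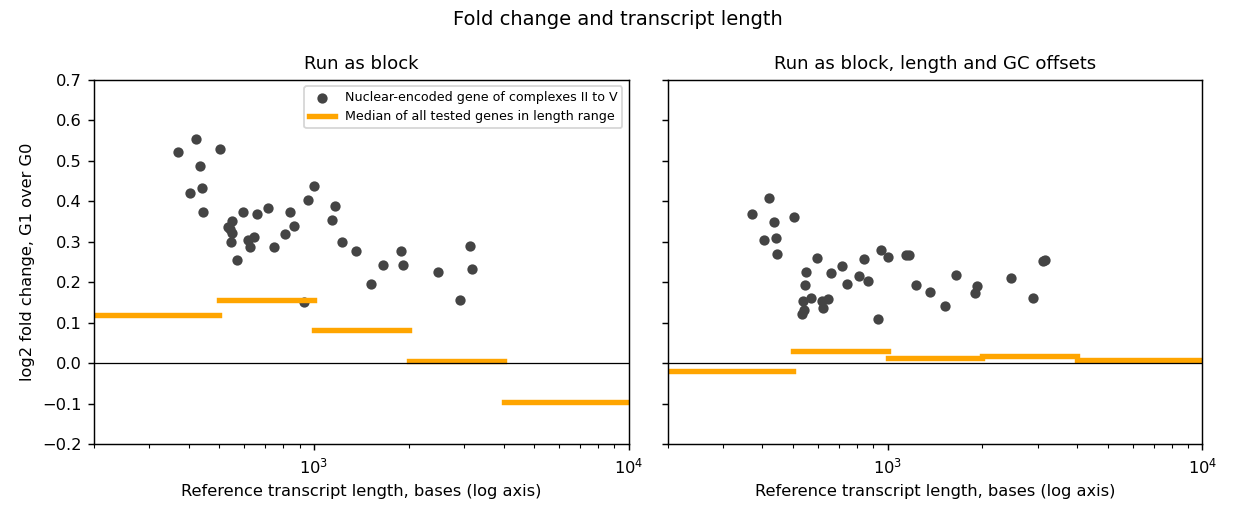
Log2 fold change of the 38 nuclear genes (points) against the length of their reference transcript (log axis), in the fit with the run block (left) and in the same fit with offsets for length and GC content (right). Bars give the median of all tested genes in each length range. The points lie above 0 in both panels and reach 0.55 on the left and 0.41 on the right.

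Further subunits and factors of the same complexes were measured beside the set. All 5 other subunits of complexes IV and V had blocked values above 0, with a median of 0.33 and 0 called. Usmg5 and Atp5mpl (2010107E04Rik), small membrane subunits of ATP synthase, had 0.46 ± 0.13 and 0.48 ± 0.13 (adjusted p = 0.0746 and 0.0807). Of 10 assembly factors of complexes II and III, 8 were above 0 with a median of 0.14, and of 23 tested assembly and expression factors of complex IV, 19 were above 0 with a median of 0.23. All 5 factors of complex V were above 0, with a median of 0.30. None of these factors was called. Those with the smallest p were Uqcc2 (0.30 ± 0.13) and Sdhaf2 (0.18 ± 0.15), Cox14 (0.31 ± 0.13) and Slirp (0.27 ± 0.12), and the ATP synthase inhibitor Atpif1 (0.37 ± 0.11) and Fmc1 (0.34 ± 0.15), with adjusted p of 0.126 to 0.678.

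Regulators of mitochondrial biogenesis lay nearer to 0. Of 16 tested, 11 had a blocked value above 0, with a median of 0.05 and 0 called. Nrf1 itself had 0.04 ± 0.14, Gabpa 0.05 ± 0.12 and Tfam, which packages mitochondrial DNA and starts its transcription, 0.06 ± 0.14. Of the list, the smallest p were those of Mterf1a, a mitochondrial transcription termination factor, at 1.34 ± 0.54 (adjusted p = 0.282), and the coactivator Pprc1, at -0.18 ± 0.12 (adjusted p = 0.566). Mterf1a was low, at 1.95 ± 0.73 CPM in G1 and 0.79 ± 0.45 CPM in G0 (SD, n = 4).

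In the citric acid cycle, 12 of 13 genes were above 0, with a median of 0.14 and 0 called, and Idh3a and Suclg1 had 0.35 ± 0.12 and 0.35 ± 0.12 (adjusted p = 0.170 and 0.217). The 6 tested genes for the passage of ADP, ATP and phosphate were 3 carriers of the inner membrane and the 3 outer membrane channels Vdac1, Vdac2 and Vdac3. Of these, 1 was called higher with the block, where 0.481% of all tested genes were, namely Slc25a4, the exchanger of ADP for ATP. Slc25a4 had 462, 367, 443 and 374 CPM in the G1 libraries of runs 1 to 4, against 367, 274, 314 and 258 CPM in the G0 libraries. G1 was higher in each run by log2 ratios of 0.33 to 0.54, a narrower range than for the called subunits. Its log2 fold change was 0.45 ± 0.11 with the block (adjusted p = 0.029) and 0.44 with the phase alone (adjusted p = 0.9999), and without any single run the blocked adjusted p was 0.0626 to 0.118. The related Slc25a5 had 0.16 ± 0.11 (adjusted p = 0.612).

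The same direction was seen in related gene sets. All 36 nuclear subunits of complex I, the NADH dehydrogenase of the same chain, had blocked values above 0, with a median of 0.36 and 0 called. Of 77 tested mitochondrial ribosomal proteins, 74 were above 0 with a median of 0.23 and 0 called. Of 79 tested cytosolic ribosomal proteins, 77 were above 0 with a median of 0.28, and 1 was called higher, where 0.481% of all tested genes were. The medians stand next to the 0.33 of the nuclear genes of complexes II to V, and differences between the sets were not tested.

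Endothelial markers moved with the phase, and the other lists of cell type markers did so in part or not. In edgeR all 10 endothelial markers were called lower in G1 with the block, where 0.764% of all genes were. With the phase alone edgeR called 0 of the 10, and the smallest adjusted p was 0.490. Their summed level was 26.4 to 114 CPM in G1 and 158 to 276 CPM in G0. The 5 adipocyte markers summed to 29.5 to 204 CPM in G1 and 147 to 429 CPM in G0, with 2 tested and 1 called lower, Lpl. Most of the sum was Fabp4, which averaged 87.8 CPM in G1 and 218 CPM in G0. The mean sums were 99.1 and 241 CPM, and the defining markers Adipoq and Plin1 were near 0. The 7 fibroblast markers summed to 241 to 600.2 CPM in G1 and 206 to 879 CPM in G0, with 4 called lower. The sum was higher in G1 in runs 1, 2 and 4, by ratios of 1.17, 1.08 and 1.46, and lower in run 3, at 0.683. Dcn, the most abundant of them, averaged 254 ± 62.4 CPM in G1 and 177 ± 83.1 CPM in G0 (SD, n = 4), with a blocked log2 fold change of 0.58 ± 0.16 (adjusted p = 0.0974 in edgeR). The 7 immune markers summed to 41.0 to 373 CPM in G1 and 54.5 to 352 CPM in G0, with 0 called, and the 10 luminal markers to 1142 to 1890.1 CPM in G1 and 1011 to 2135 CPM in G0, with 0 called. The 7 basal markers summed to 23445 to 26705 CPM in G1 and 17232 to 21611 CPM in G0. Of these, 1 was called higher, Acta2, where 0.481% of all genes were. Most of the difference in the sum came from Acta2, which averaged 12151 CPM in G1 and 7886 CPM in G0. The blocked log2 fold changes were 0.05 for Krt5, 0.05 for Krt14, -0.008 for Trp63 and -0.17 for Itgb4. They were 0.32 for Myh11 and 0.21 for Oxtr. The marker calls above are those of the blocked fit in edgeR, and with the phase alone edgeR called 0 markers of any list. DESeq2 with the phase alone called Cdh5, Flt1, Tie1, Cldn5, Esam and Pecam1 lower in G1 (adjusted p = 0.0014 to 0.0312). It called 24 of all 15192 tested genes lower. Kdr, Tek, Emcn and Egfl7 did not pass there. The part of these cells in the levels of the respiratory genes was not tested.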

How the data were processed

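RNA of 4 G1 and 4 G0 libraries was measured. Per the labels' protocols, polyadenylated RNA was made into stranded TruSeq libraries and read as paired ends on an Illumina HiSeq. The submitters' processing notes name Trimmomatic 0.35, STAR 2.5.2a and the build mm10. The counting program, its strand setting and its treatment of reads with several matches are not given there or in the labels. The authors deposited raw counts for each Ensembl gene, as whole numbers without scaling, in 1 table for all libraries. Of 54837 identifiers, 54808 matched GENCODE M21 (GRCm38, the assembly also called mm10) and 29 did not.

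The members, gene lists and tests were chosen with earlier results of these data known. Groups follow the labelled phase, and replicate numbers follow the run in the titles. Counts of libraries within a group gave a chi-square of at least 21.7 for each degree of freedom, where counting noise alone gives about 1, so none was taken as a copy of another. The main test was the two-sided robust quasi-likelihood F-test of edgeR 4.0.16 (R 4.3.3) with TMM factors, filterByExpr by group (15192 genes) and the phase alone, with Benjamini-Hochberg adjustment over all tested genes at 0.05. Log2 fold changes are G1 over G0, with an SE. Deviations of G1 and G0 libraries from their group means correlated within runs 1 to 4 at 0.668, 0.470, 0.638 and 0.437, and at most at 0.0971 between runs. The run numbers in the titles and these correlations are the source of the pairing, and a fit with the run number as a block is given beside the main one. CPM are TMM-scaled, and per-run ratios used a prior count of 2. Total counts of 5868728 to 15014104 per library set the precision, and low genes are limited by it.

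The genes named with per-library values are those called in either fit, the largest and smallest fold change of each complex, the mitochondrial genes, complex II, cytochrome c and the Atp5g paralogs. From each pathway list, the called genes or else those with the 2 smallest blocked p are named; Nrf1, Gabpa, Tfam and Slc25a5 were added after their values were seen, as were the other subunits given by fold change alone. Reference transcripts were the shortest of the best-supported principal coding transcripts. Near-identical copies were found with blastn 2.17.0, at 95% identity or more over at least 200 bases. The alternatives were RLE factors, library totals, TMM factors without mitochondrial genes, other low-count filters, DESeq2 1.42.0, limma-voom (limma 3.58.1), the run block, length and GC offsets (known for 99.94% of tested genes) and each library or run left out. The test code was checked beforehand on simulated data. Amino acid sequences were not used here.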

Additional observations from a re-analysis of the deposited data

Results flagged for a closer look

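In 4 of 86 groups of 4 libraries, 1 library stood apart from the other three by Dixon's test at the 95% level, and all 4 of these were libraries of run 3. Chance alone sets apart about 1 in 20 groups. Cycs reached 181 CPM in the G0 library of run 3, against 57.7 to 73.1 CPM in the other G0 libraries. Cox5b reached 192 CPM in the same library, against 90.6 to 97.5 CPM in the others, and Atp5g1 reached 187 CPM there, against 82.7 to 91.6 CPM. Atp5d reached 397 CPM in the G1 library of run 3, against 203 to 233 CPM in the other G1 libraries.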

How the results depend on the processing

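With the phase alone, 0 members were called under RLE factors, library totals, TMM factors without mitochondrial genes, either low-count filter, DESeq2, limma-voom and each library left out. With the run as a replicate block, which follows the pairing, the count was 3 (all nuclear), where 0.481% of all genes were called higher. It was also 3 with RLE factors (0.487%), with library totals (0.507%) and with TMM factors without mitochondrial genes (0.481%). It was 5 with DESeq2 (0.638% of all genes higher), 2 with limma-voom (0.415%) and 2 with length and GC offsets (0.797%), again all nuclear. With the block and a run left out it was 0 to 4 over all members and 0 to 4 over nuclear ones. In those fits 0.144% to 0.638% of all genes were called higher. Without run 1 it was 4, Uqcrq being added at an adjusted p of 0.0439. Without run 3 it was 4, of which 3 nuclear and 1 mitochondrial, mt-Cytb.

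Leaving out single libraries in the fit with the phase alone breaks a pair. The median log2 fold change then ran from 0.17 (without the G1 library of run 3) to 0.58 (without the G0 library of run 3) over the nuclear genes, and from -0.082 to 1.02 over the mitochondrial genes, which were at 0.71 without the G1 library of run 1 and at -0.005 without the G0 library of run 1. The ranges were 0.17 to 0.42 for complex II, 0.19 to 0.61 for complex III, 0.053 to 0.66 for complex IV and 0.18 to 0.57 for complex V. With the block and a run left out, the nuclear median ran from 0.22 to 0.41. Under single libraries left out, values turned below 0 for Cycs (-0.056 to 0.72), Cox6a1 (-0.013 to 0.52), Atp5d (-0.090 to 0.37), Atp5l (-0.090 to 0.81), mt-Co1 (-0.32 to 0.38), mt-Co3 (-0.082 to 1.11) and mt-Atp6 (-0.31 to 1.02), and the causes were not tested.

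Limma-voom without the block gave -0.14 for the mitochondrial median, -0.059 for mt-Co1, -0.14 for mt-Co2, -0.21 for mt-Co3 and -0.33 for mt-Atp6. With the block mt-Co1 was at -0.070 in edgeR, -0.072 with RLE factors, -0.079 with library totals, -0.070 with TMM factors without mitochondrial genes, -0.072 in DESeq2, -0.072 in limma-voom and -0.21 with offsets, and with a run left out it ran from -0.30 (without run 4) to 0.09, with -0.064 without run 2 and -0.013 without run 3. The cause was not tested. Among nuclear genes all 38 stayed above 0 in each setting except without the G1 library of run 3, where 34 did. The counts of mt-Co2, mt-Co3, mt-Atp6 and mt-Atp8 did not follow depth, being 0 in both run 1 libraries, and only mt-Atp8 was too low to test. With no low-count filter the median over all 42494 genes was -0.82, while that of the nuclear genes was 0.33.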
